A study of Mus musculus with 32 samples.

Results

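The complement components and receptors described here are 9 mouse genes, namely C1qa, C1qb, and C1qc, C3 and C4b, C3ar1 and C5ar1, Serping1, and C1ql3. They were chosen by name from the 49671 genes of an RNA-seq count table, and all 9 passed the filter on low counts. The table holds 32 libraries from cultured cortical neurons of wild-type (WT) C57BL/6 mouse embryos. The neurons received no oligoribonucleotide (untreated), Mut.oligo, miR-124-5p, or else miR-92a-1-5p, and RNA was taken after 6 h and after 5 d, with 4 libraries labelled as biological replicates in each of the 8 groups. The study added both microRNAs (miRNAs) to the medium as extracellular oligoribonucleotides in order to ask how neurons respond to them, and Mut.oligo, a mutated form of the miRNA let-7b, served as its control for sequence. All cultures were grown in the same serum-free neuronal medium, and the groups carried no other allele or agent. Such a culture is a mixed population of brain cells rich in neurons, and each library is the bulk RNA of all of them.

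Complement is a cascade of secreted proteins of innate immunity. In its classical pathway, C1q, built from the chains A, B, and C, binds to a surface, and the attached proteases cleave C4 and C2, which leads to the cleavage of C3, where all pathways of the cascade converge. The released fragments C3a and C5a act on the receptors C3aR1 and C5aR1, and the C1 inhibitor encoded by Serping1 blocks the proteases at the start. In the brain, microglia are the main source of C1q and express both receptors, reactive astrocytes are known for C3 and C4, and C1q and C3 are known to tag synapses for removal. C1ql3 is no complement component. It encodes a secreted neuronal protein with a C1q-like domain that acts at synapses, and it stands here beside the others for that shared domain.

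The sequences shown here are the exposed miRNA and the promoters of 3 members, 1 each of recognition chains, central components, and receptors, all read from RefSeq on GRCm38.p6. Mature miR-92a-1-5p lies on chromosome 14 from 115044437 to 115044459 on the plus strand, and capitals mark its seed, bases 2 to 8. Each promoter is the 250 bases before the RefSeq start of the gene, written along the strand of the gene, and capitals mark the motif found there. RefSeq entries were matched for the promoters of 6 of the 9 members, without C1qa, C4b, and Serping1, and the sequence of miR-124-5p is not printed.
miR-92a-1-5p: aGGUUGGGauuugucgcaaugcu
C1qb: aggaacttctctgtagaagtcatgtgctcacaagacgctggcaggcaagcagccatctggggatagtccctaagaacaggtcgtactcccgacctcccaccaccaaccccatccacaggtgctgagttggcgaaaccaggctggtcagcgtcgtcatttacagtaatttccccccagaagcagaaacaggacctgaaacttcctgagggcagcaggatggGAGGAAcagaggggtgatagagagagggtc
C3: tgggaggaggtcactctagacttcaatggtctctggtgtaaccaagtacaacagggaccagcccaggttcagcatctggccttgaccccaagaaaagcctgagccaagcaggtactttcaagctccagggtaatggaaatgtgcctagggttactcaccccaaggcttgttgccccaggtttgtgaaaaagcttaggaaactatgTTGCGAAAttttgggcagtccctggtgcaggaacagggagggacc
C3ar1: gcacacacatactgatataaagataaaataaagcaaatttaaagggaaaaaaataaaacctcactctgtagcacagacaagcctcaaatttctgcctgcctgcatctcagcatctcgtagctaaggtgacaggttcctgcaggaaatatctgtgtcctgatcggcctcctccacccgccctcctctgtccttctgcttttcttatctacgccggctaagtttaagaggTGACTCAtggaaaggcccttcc

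The C1qb promoter (chr4:136886201-136886450, minus strand) held GAGGAA, a core of sites for PU.1, the transcription factor of myeloid cells, 30 bases before the start. The C3 promoter (chr17:57228137-57228386, minus strand) held TTGCNNAA, a C/EBP-type motif, 45 bases before the start. In the C3ar1 promoter (chr6:122856158-122856407, minus strand), TGANTCA, the motif of AP-1, lay 22 bases before the start. Both strands were searched for these motifs and for TTCNNNGAA, the STAT-type GAS motif, and overlaps between motifs were allowed. Over all 32851 promoters of this length, GAGGAA occurred in 23.3%, TTGCNNAA in 9.56%, TGANTCA in 6.75%, and TTCNNNGAA in 7.02%. The promoter of C1qc held GAGGAA 193 bases before its start, and those of C5ar1 and C1ql3 held no match to the 4 motifs. These are matches of letters and no evidence of binding.

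All coordinates are those of GRCm38, and all 9 genes lie on the minus strand. C1qa (ENSMUSG00000036887, chr4:136895917-136898803), C1qc (ENSMUSG00000036896, chr4:136889804-136893065), and C1qb (ENSMUSG00000036905, chr4:136880129-136886187) are neighbours on chromosome 4. C3 (ENSMUSG00000024164, chr17:57203970-57228136) and C4b (ENSMUSG00000073418, chr17:34728380-34743882) share chromosome 17. The receptor genes are C3ar1 (ENSMUSG00000040552, chr6:122847138-122856161) and C5ar1 (ENSMUSG00000049130, chr7:16246743-16259540). Serping1 (ENSMUSG00000023224, chr2:84765387-84775444) and C1ql3 (ENSMUSG00000049630, chr2:13003457-13011806) lie on chromosome 2. The exons of C1ql3 overlap Gm37824 and Gm37811 on the other strand, which counting by strand keeps apart. C4b shared 1306 of its 5762 transcript windows of 75 bases (22.7%) with C4a, so that its counts leave out reads that fit both genes or split them in a way not tested here, and the other 8 members shared none with another gene.

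The libraries held 24514090 to 73626029 counted reads. Levels are given in CPM, counts per 1000000 counts of the library, and 3 reads were worth between 0.0407 and 0.122 CPM. The labels also name an experiment batch, and each batch lies within 1 time point, with 7 batches at 6 h and 6 at 5 d. Time point and batch therefore cannot be told apart, and a change between 6 h and 5 d is given as the difference between these libraries. None of the 48 pairs of replicates was identical, with a chi-square per degree of freedom of at least 7.10. No member is the target of a treatment, so that none can check the labels. The labelled cell type was checked with 9 neuron markers, whose summed level was 5102 to 5682 CPM at 6 h and 4499 to 5975 CPM at 5 d. Other cells were present as well. Microglia markers (14 genes) summed to 28.1 to 55.4 CPM at 6 h and 28.4 to 60.4 CPM at 5 d, and 9 astrocyte markers to 391 to 883 CPM and 1725 to 3382 CPM. Border macrophage markers stayed between 0.110 and 1.63 CPM over both time points. Marker sums of oligodendrocyte lineage cells were 118 to 293 CPM at 6 h and 86.7 to 205 CPM at 5 d, those of endothelial cells 2.58 to 10.8 and 3.34 to 11.2 CPM, and those of fibroblasts and mural cells 31.6 to 211 and 45.3 to 103 CPM.

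Between 6 h and 5 d, C1ql3 rose 4- to 6-fold in every condition, and the central components C4b and C3 had higher means at 5 d in every condition but rose past the threshold in only some of them. The receptor genes C3ar1 and C5ar1, which microglia express, had lower means at 5 d in every condition, and Serping1 fell in the Mut.oligo libraries, and the C1q chains did not pass the threshold in any condition. Within a time point, none of the 9 genes passed the threshold between conditions. The threshold for a call was an adjusted p of 0.05 together with an absolute log2 fold change of 0.5 (quasi-likelihood test of edgeR, adjusted by Benjamini-Hochberg over all genes tested). Over the 20425 genes tested between the time points, 19.1% rose and 14.3% fell in untreated neurons, 18.3% rose and 15.7% fell after miR-92a-1-5p, 19.5% rose and 14.7% fell after miR-124-5p, and 18.7% rose and 15.4% fell after Mut.oligo exposure. Of the 9 members, 2 rose and 1 fell in untreated neurons, 3 rose and 1 fell with either miRNA, and 1 rose and 3 fell in the Mut.oligo libraries. With 9 genes, a count of 1 or 2 in a direction is near the share of all genes called in that direction. Whether the counts of 3 exceed that share was not tested. The median log2 fold change of the members was 0.38 in untreated neurons, 0.42 with miR-92a-1-5p, 0.50 with miR-124-5p, and 0.10 with Mut.oligo, against medians between -0.01 and 0.04 over all genes.

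**Figure D1:**
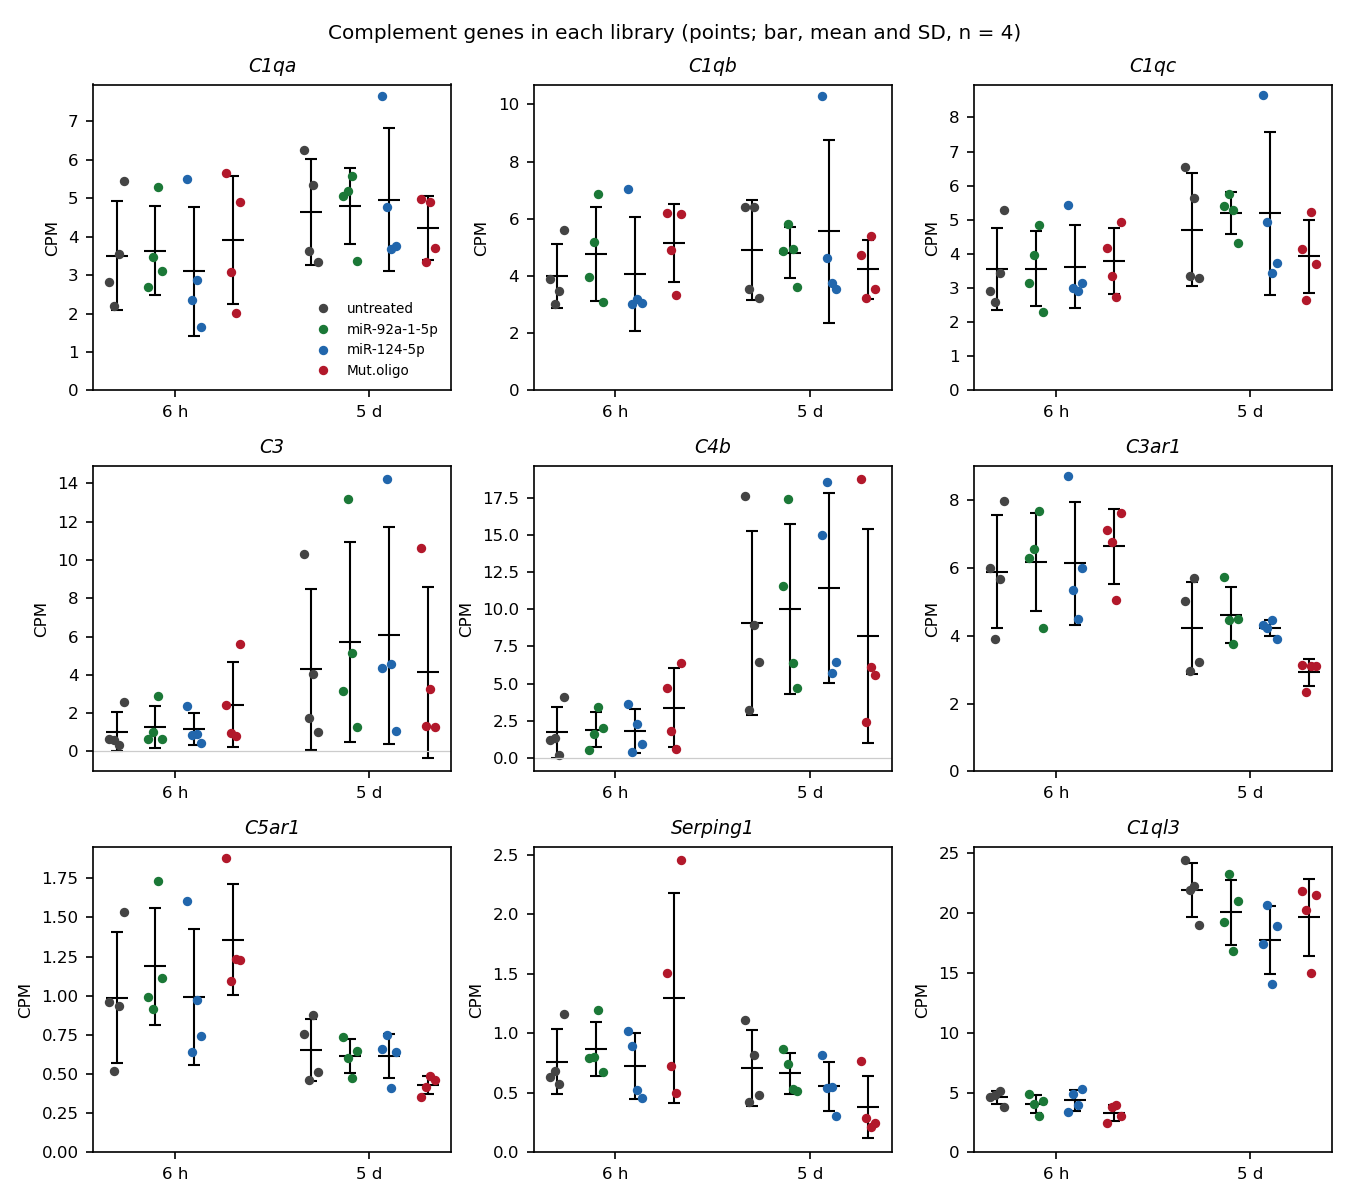
Level of each of the 9 genes in CPM (vertical axis of each panel, linear) in every library, by condition and time point, with 1 point per library and the mean ± SD of the 4 libraries of a group. C1ql3 is the only gene whose 5 d libraries (14.1 to 24.5 CPM) all lie above its 6 h libraries (2.49 to 5.27 CPM), while the C3 and C4b points of a 5 d group spread over more than their mean.

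Levels of different genes were compared per kilobase of exon. At 6 h, the means over 16 libraries were 4.13 CPM per kb for C1qb, 3.41 for C1qa, 1.89 for C1qc, 1.61 for C1ql3, and 1.44 for C3ar1. C5ar1, Serping1, C4b, and C3 had the lower levels, with means of 0.440, 0.393, 0.388, and 0.289 CPM per kb. At 5 d, C1ql3 led the order with 7.84 CPM per kb, followed by C1qa and C1qb with 4.48 each, C1qc with 2.46, C4b with 1.70, C3 with 0.981, C3ar1 with 0.928, Serping1 with 0.248, and C5ar1 with 0.225. In mean level, each C1q chain stood above C3 and C4b at both time points, although single libraries overlapped at 5 d, when C4b reached 3.29 and C3 2.76 CPM per kb and the lowest libraries had 3.21 (C1qa), 2.96 (C1qb), and 1.36 CPM per kb (C1qc). Within a library, the level of C1qb was 0.932 to 1.75 times that of C1qa per kb at 6 h and 0.850 to 1.28 times at 5 d. C1qc was at 0.395 to 1.02 times the C1qa level at 6 h and at 0.425 to 0.692 times at 5 d.

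C1qa, which encodes the A chain of C1q, had 2.82, 2.21, 3.56, and 5.46 CPM in the untreated replicates 1 to 4 after 6 h. At 5 d, the untreated replicates had 6.25, 3.64, 5.36, and 3.35 CPM. Across the oligoribonucleotides, it had 2.69, 3.46, 5.30, and 3.11 CPM (miR-92a-1-5p), 5.52, 2.36, 2.87, and 1.66 CPM (miR-124-5p), and 5.67, 3.07, 2.01, and 4.91 CPM (Mut.oligo) at 6 h. The groups overlapped, and in the whole series C1qa ranged from 1.66 to 5.67 CPM at 6 h and from 3.34 to 7.65 CPM at 5 d. The means were 3.51 ± 1.41 CPM at 6 h and 4.65 ± 1.39 CPM at 5 d (SD, n = 4 each), and the log2 fold change between the time points of 0.38 (SE 0.31) did not pass the threshold (adjusted p = 0.317). Here and for the other genes, more cells of a type and more RNA per cell cannot be told apart in bulk RNA.

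C1qb, the B chain, had 3.88, 3.02, 3.47, and 5.59 CPM in untreated neurons at 6 h and 6.42, 3.56, 6.41, and 3.22 CPM at 5 d. After miR-124-5p exposure, 1 library stood apart at each time point, with 7.05 CPM against 3.00 to 3.20 CPM in the other 3 replicates at 6 h and with 10.3 CPM against 3.54 to 4.64 CPM at 5 d. At 6 h, this library belongs to a batch with 1 library of each condition, and all 4 of its libraries lay between 5.59 and 7.05 CPM, above every other library but the Mut.oligo replicate 4 with 6.17 CPM. C1qc, the C chain, had 2.92, 2.60, 3.44, and 5.30 CPM in untreated neurons at 6 h and 6.55, 3.36, 5.65, and 3.29 CPM at 5 d. Its highest value came from miR-124-5p replicate 1 at both time points (5.44 and 8.65 CPM), as that of C1qb did.

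Over time, the log2 fold changes of the 3 chains lay between -0.24 for C1qb after Mut.oligo exposure (SE 0.31) and 0.68 for C1qa after miR-124-5p exposure (SE 0.32, adjusted p = 0.0691). The smallest adjusted p of C1qc was 0.0808, after miR-92a-1-5p exposure, with a log2 fold change of 0.56 (SE 0.27). Without miR-124-5p replicate 1 at 6 h, all 3 chains passed the threshold for miR-124-5p, with log2 fold changes of 1.11 for C1qa, 0.84 for C1qb, and 0.77 for C1qc and adjusted p of 0.00516, 0.0274, and 0.0281. C1qa also passed without miR-124-5p replicate 3 at 5 d (0.80, adjusted p = 0.0490). C1qc passed for miR-92a-1-5p without its replicate 3 at 6 h (0.78, adjusted p = 0.0290) and in a fit of only the 2 groups compared.

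C3, the central component of the cascade, was low at 6 h. The untreated replicates 1 to 4 had 0.630, 0.616, 0.332, and 2.57 CPM, from 11 reads in the lowest library of the series upward. After 5 d they had 10.3, 1.77, 4.07, and 1.02 CPM. The 2 time points overlapped, since the untreated replicate 4 was at 2.57 CPM at 6 h, above 2 of the untreated 5 d libraries. At 5 d, C3 had 3.18, 13.2, 5.16, and 1.29 CPM after miR-92a-1-5p, 4.36, 14.2, 4.59, and 1.08 CPM after miR-124-5p, and 10.6, 1.36, 3.25, and 1.26 CPM after Mut.oligo exposure. Thus each condition held 1 library above 10 CPM and at least 1 below 2 CPM. At 6 h, C3 had 0.632, 1.00, 2.91, and 0.638 CPM after miR-92a-1-5p, 2.37, 0.858, 0.925, and 0.460 CPM after miR-124-5p, and 2.41, 0.973, 0.802, and 5.62 CPM after Mut.oligo exposure.

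C4b encodes complement component C4, the protein cleaved by the C1 proteases. Its untreated levels were 1.23, 1.33, 0.211, and 4.13 CPM at 6 h and 17.6, 3.24, 8.97, and 6.48 CPM at 5 d. It had 11.6, 17.4, 6.37, and 4.74 CPM after miR-92a-1-5p, 14.96, 18.6, 5.69, and 6.43 CPM after miR-124-5p, and 18.7, 2.44, 6.15, and 5.60 CPM after Mut.oligo exposure at 5 d. In 6 h libraries of the 3 oligoribonucleotides, it lay between 0.393 and 6.40 CPM. The untreated and the Mut.oligo libraries overlapped between the time points, and those exposed to a miRNA did not.

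Between 6 h and 5 d, C4b rose in untreated neurons by a log2 fold change of 2.35 (SE 0.71, adjusted p = 0.00614), which is 5.09-fold. It also rose after miR-92a-1-5p by 2.39 (SE 0.69, adjusted p = 0.00415) and after miR-124-5p by 2.66 (SE 0.72, adjusted p = 0.00231). In the Mut.oligo libraries, the value was 1.35 (SE 0.68) and did not pass the threshold (adjusted p = 0.0943). These rises of C4b passed the threshold without any single library of the condition. C3 rose after miR-92a-1-5p by 2.19 (SE 0.84, adjusted p = 0.0277) and after miR-124-5p by 2.44 (SE 0.88, adjusted p = 0.0188), and it did not pass in untreated neurons with 1.99 (SE 0.87, adjusted p = 0.0539) or after Mut.oligo exposure with 0.81 (SE 0.82, adjusted p = 0.419).

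The rise of C3 depended on single libraries. Without replicate 2 at 5 d, its log2 fold change was 1.36 after miR-92a-1-5p (adjusted p = 0.194) and 1.58 after miR-124-5p (adjusted p = 0.143). The call was also lost for miR-92a-1-5p without 6 h replicate 1 (2.02), 2 (2.13), or 4 (1.93), and for miR-124-5p without 6 h replicate 4 (2.18). In untreated neurons, leaving out 6 h replicate 4 gave 3.04 and a call (adjusted p = 0.0176), as did leaving out 5 d replicate 2 or 4. For C4b, the Mut.oligo comparison was called without 6 h replicate 4 (1.85) or 5 d replicate 2 (1.65).

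**Figure D2:**
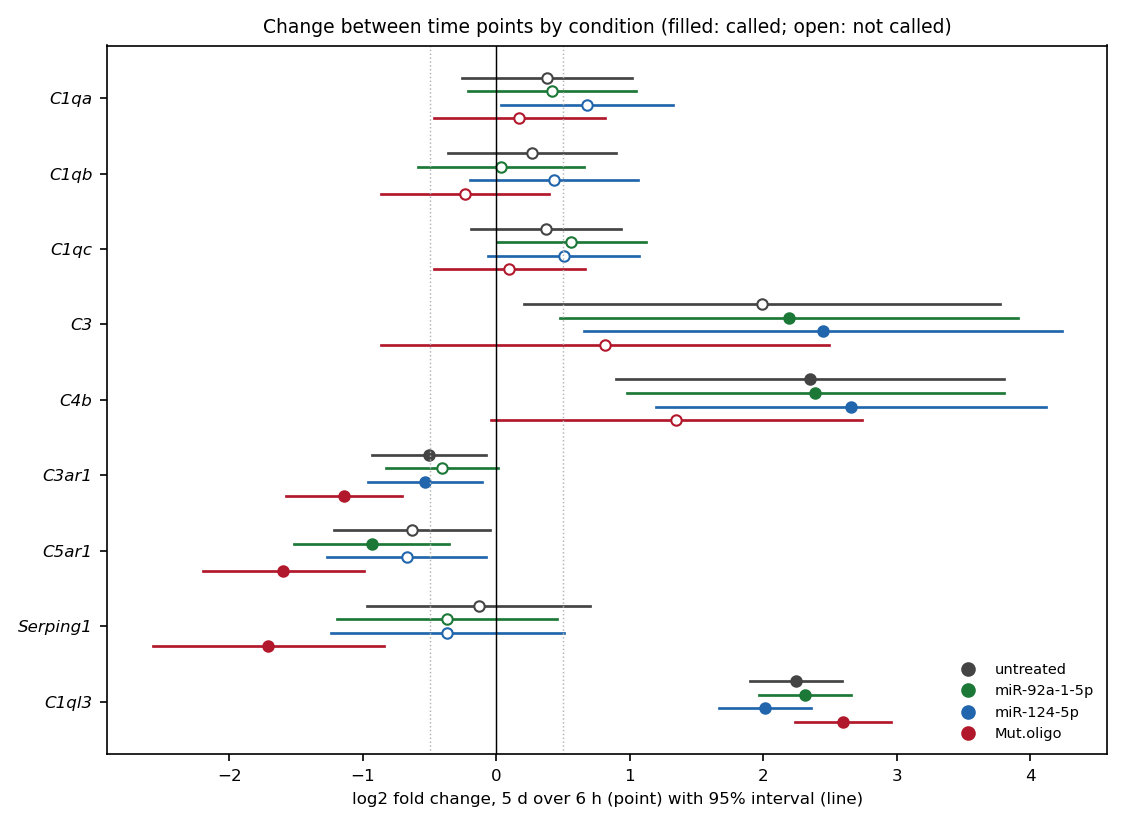
Change between 6 h and 5 d of the 9 genes in each condition as log2 fold change (horizontal axis, 5 d over 6 h), with its 95% interval. Filled points passed the threshold, which C1ql3 did in 4 of 4 conditions, C4b and C3ar1 in 3, C3 and C5ar1 in 2, Serping1 in 1, and the C1q chains in none.

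The libraries with high C3 and C4b belonged to the same batches. At 5 d, the 4 libraries of the batch that holds untreated replicate 1, 1 of each condition, had 10.3 to 14.2 CPM of C3 and 17.4 to 18.7 CPM of C4b. The batch of untreated replicate 4, likewise with 1 library of each condition, had 1.02 to 1.29 CPM of C3 and 4.74 to 6.48 CPM of C4b. The difference between these batches was larger than any difference between conditions within them. Gfap, which encodes the intermediate filament of astrocytes, had 402 to 511 CPM in the former batch and 88.2 to 114 CPM in the latter. At 6 h, the batch of untreated replicate 4 was high, with 2.37 to 2.91 CPM of C3, 3.44 to 4.69 CPM of C4b, and 36.1 to 42.4 CPM of Gfap in its 4 libraries. The highest 6 h values of C3, C4b, Serping1, and Gfap (5.62, 6.40, 2.45, and 71.0 CPM) came from Mut.oligo replicate 4, whose batch holds no other library.

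Astrocyte markers moved with the time points as well. Of 9 astrocyte markers, 9 rose between 6 h and 5 d in untreated neurons, 9 each in the miR-124-5p and Mut.oligo libraries, and 8 after miR-92a-1-5p exposure. The share of all genes that rose was 18.3% to 19.5%. Gfap rose by a log2 fold change of 3.70 (SE 0.85, adjusted p = 0.000470) in untreated neurons and by 2.44 (SE 0.80, adjusted p = 0.0110) in the Mut.oligo libraries. There, C4b had a log2 fold change of 1.35 without a call, and a difference between Gfap and C4b was not tested. The part of the astrocyte markers in the results for C3 and C4b was not tested.

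**Figure D3:**
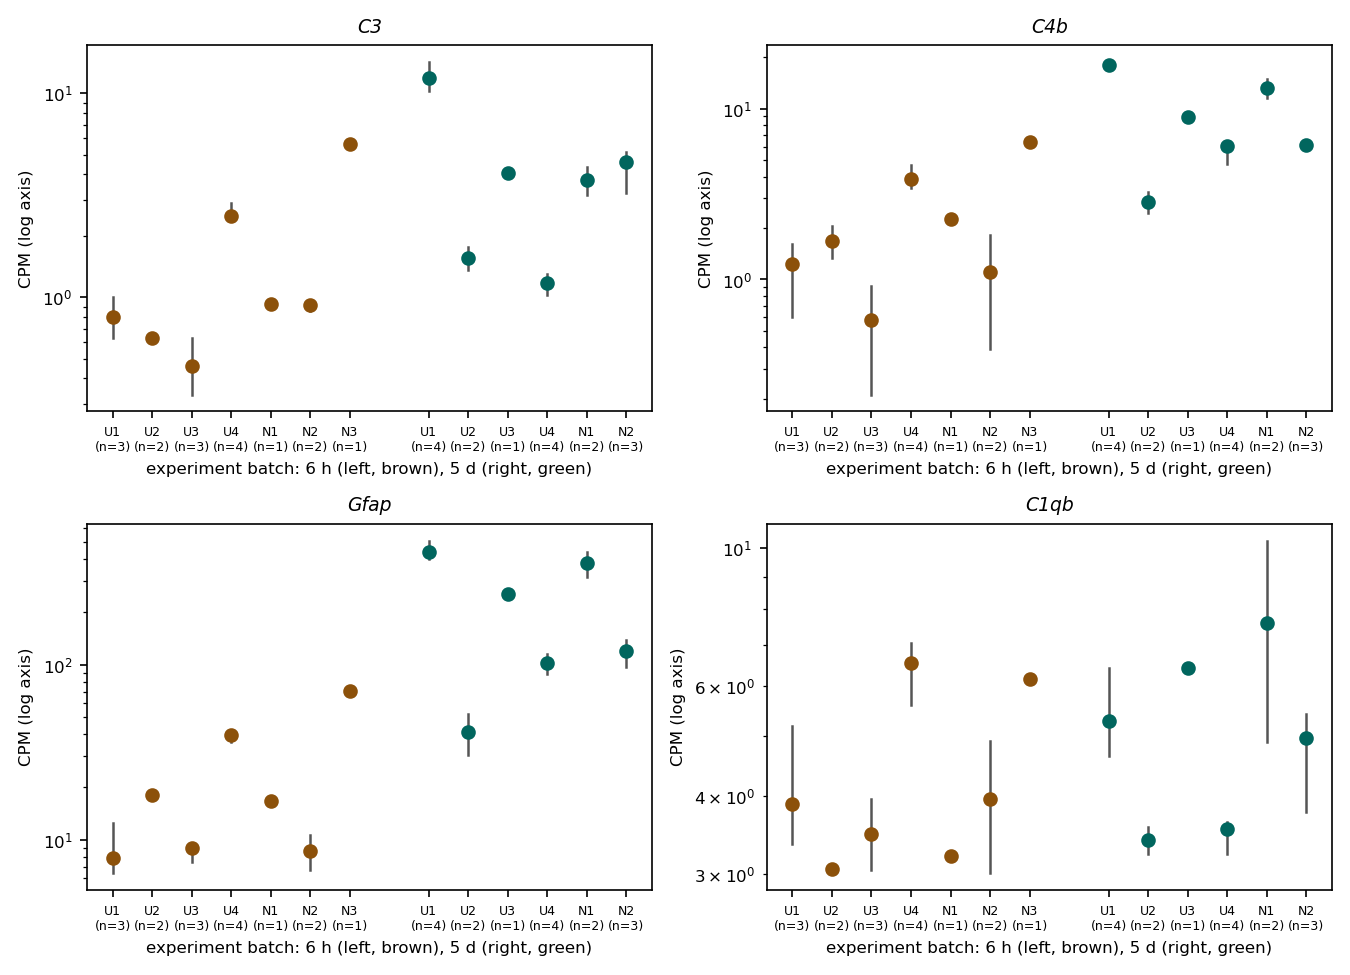
Levels of C3, C4b, Gfap, and C1qb in CPM (vertical axis, log scale) by experiment batch at 6 h and 5 d, where points are the median of a batch and lines run from its lowest to its highest library. U1 to U4 are the batches of the untreated replicates 1 to 4, and N1 to N3 hold no untreated library. C3, C4b, and Gfap are highest in U1 at 5 d and, among batches of several libraries, in U4 at 6 h.

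C3ar1, the receptor of the C3a fragment, was the more abundant receptor. In untreated neurons it had 6.00, 3.89, 5.67, and 7.95 CPM at 6 h and 5.01, 2.96, 5.71, and 3.22 CPM at 5 d, which overlapped. At 6 h, miR-92a-1-5p libraries had 6.30, 6.55, 7.67, and 4.21 CPM and miR-124-5p libraries 8.69, 5.33, 4.50, and 5.99 CPM. After Mut.oligo exposure it had 7.10, 6.75, 5.05, and 7.62 CPM at 6 h and 3.15, 2.33, 3.09, and 3.11 CPM at 5 d, which did not. It fell by 1.14 on the log2 scale in the Mut.oligo libraries (SE 0.21, adjusted p = 3.86e-05), by 0.50 in untreated neurons (SE 0.21, adjusted p = 0.0402), and by 0.53 after miR-124-5p exposure (SE 0.21, adjusted p = 0.0310). For miR-92a-1-5p, the value was -0.41 (SE 0.21, adjusted p = 0.0955), and it passed the threshold without 6 h replicate 4 (-0.56, adjusted p = 0.0233). The Mut.oligo call held without any single library, whereas those of untreated neurons and miR-124-5p were lost in 5 of 8 such fits each, with values from -0.66 to -0.29 and from -0.64 to -0.31. They were lost for untreated neurons without 6 h replicate 1, 3, or 4 or 5 d replicate 2 or 4, and for miR-124-5p without 6 h replicate 1 or 4 or 5 d replicate 1, 2, or 4.

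C5ar1, the receptor of the C5a fragment, lay between 0.519 and 1.88 CPM at 6 h and between 0.356 and 0.879 CPM at 5 d, with 16 to 82 reads per library. Of the 6 h libraries, 13 of 16 lay above every 5 d library. After Mut.oligo exposure, it had 1.88, 1.09, 1.24, and 1.23 CPM at 6 h and 0.356, 0.420, 0.485, and 0.463 CPM at 5 d, and it fell by 1.59 on the log2 scale (SE 0.30, adjusted p = 3.37e-05). After miR-92a-1-5p exposure, it had 0.990, 0.914, 1.73, and 1.11 CPM at 6 h and 0.735, 0.600, 0.474, and 0.646 CPM at 5 d. There C5ar1 fell by 0.93 on the log2 scale (SE 0.28, adjusted p = 0.00599), and without 6 h replicate 3 the value was -0.67 (adjusted p = 0.0560). The values of -0.63 in untreated neurons (SE 0.29, adjusted p = 0.0621) and -0.67 after miR-124-5p exposure (SE 0.29, adjusted p = 0.0508) did not pass the threshold. They passed it without 6 h replicate 2 or 5 d replicate 3 for untreated neurons, and without 6 h replicate 2 or 4 or 5 d replicate 2 for miR-124-5p.

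Few microglia markers were called as lower at 5 d. Their median log2 fold change was 0.30 in untreated neurons, 0.25 with miR-124-5p, -0.06 with miR-92a-1-5p, and -0.39 with Mut.oligo. Of 13 microglia markers tested between the time points, 2 rose and 0 fell in untreated neurons, 5 rose and 0 fell with miR-124-5p, 2 rose and 0 fell with miR-92a-1-5p, and 0 rose and 1 fell with Mut.oligo. Over all genes, 19.1%, 19.5%, 18.3%, and 18.7% rose in this order of conditions, and 14.3% to 15.7% fell. A count of 2 of 13 is near the share of all genes that rose. The fractalkine receptor gene Cx3cr1 rose in all conditions but Mut.oligo, as did Csf1r, the receptor that microglia need for survival, and P2ry12, P2ry13, and Aif1 rose with miR-124-5p. Csf1r had a log2 fold change of 0.63 in untreated neurons (SE 0.26, adjusted p = 0.0391) and 0.10 in the Mut.oligo libraries (SE 0.26, adjusted p = 0.756). Tmem119, a marker of mature microglia, fell by 1.81 in the Mut.oligo libraries (SE 0.69, adjusted p = 0.0247). Siglech was at 0 in 13 of 16 libraries at 6 h and in 11 of 16 at 5 d, and P2ry13 in 11 and 4. Sall1, which other cells express too, made up 54.3% to 73.3% of the marker sum at 6 h and 50.6% to 64.6% at 5 d. The part of microglia in the results for the receptors was not tested.

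Serping1, the C1 inhibitor, was close to 1 CPM or lower in most libraries. Untreated neurons had 0.630, 0.681, 0.573, and 1.17 CPM at 6 h and 1.11, 0.422, 0.821, and 0.479 CPM at 5 d, with no order between the time points. After Mut.oligo exposure, the libraries had 1.51, 0.729, 0.501, and 2.45 CPM at 6 h and 0.772, 0.286, 0.216, and 0.248 CPM at 5 d. These groups overlapped by the 5 d replicate 1. Serping1 fell by 1.71 on the log2 scale in the Mut.oligo libraries (SE 0.42, adjusted p = 0.00101), and without any single library the value lay between -2.28 and -1.22 and was past the threshold each time. The values were -0.13 (SE 0.41) in untreated neurons, -0.37 (SE 0.40) with miR-92a-1-5p, and -0.37 (SE 0.43) with miR-124-5p.

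C1ql3, the synaptic C1q-like gene, gave the clearest pattern of the 9. Its level in untreated neurons was 4.64, 4.77, 5.16, and 3.82 CPM at 6 h and 24.5, 21.9, 22.3, and 19.1 CPM at 5 d. Libraries exposed to miR-92a-1-5p had 4.89, 4.03, 3.05, and 4.32 CPM at 6 h and 19.2, 23.3, 16.9, and 21.0 CPM at 5 d. In those exposed to miR-124-5p, it had 3.36, 4.90, 3.92, and 5.27 CPM at 6 h and 17.4, 20.7, 14.1, and 18.95 CPM at 5 d. All 16 libraries at 5 d lay above all 16 at 6 h. Mut.oligo libraries had 2.49, 3.80, 3.94, and 3.01 CPM at 6 h and 21.8, 20.2, 14.97, and 21.6 CPM at 5 d.

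C1ql3 rose 4.74-fold in untreated neurons, a log2 fold change of 2.24 (SE 0.17, adjusted p = 3.26e-12). With miR-92a-1-5p it rose 4.97-fold (log2 fold change 2.31, SE 0.17), after miR-124-5p 4.04-fold (2.01, SE 0.17), and after Mut.oligo exposure 6.05-fold (2.60, SE 0.18), with adjusted p of at most 3.01e-11. Without any single library of a condition, the log2 fold change stayed between 1.94 and 2.72. Every batch at 5 d lay above every batch at 6 h, since the lowest at 5 d had 14.1 to 16.9 CPM and the highest at 6 h had 4.89 to 5.27 CPM. Neuron marker sums overlapped between the time points, but single markers moved with C1ql3 or against it. Of the 9 neuron markers, 2 to 4 rose and 1 fell in each condition, where 18.3% to 19.5% of all genes rose and 14.3% to 15.7% fell. Slc17a7, a vesicular glutamate transporter, rose in all 4 conditions, from 25.1 to 46.0 CPM at 6 h to 91.4 to 146 CPM at 5 d, and so did Syt1, a calcium sensor of synaptic vesicles, from 434 to 534 CPM to 634 to 887 CPM. Snap25, a protein of vesicle fusion, rose in 3 conditions, and its libraries did not overlap between the time points either. Tubb3, a neuronal tubulin, fell in all 4, from 2061 to 2514 CPM to 786 to 1679 CPM. The part of these neuronal changes in the result for C1ql3 was not tested.

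Within each time point, the comparison of the conditions asked whether an oligoribonucleotide changed the expression of these genes. None of the 9 members passed the threshold against untreated at 6 h, where 0% of the 18755 genes tested were called for each of the 3 oligoribonucleotides. At 5 d, 0 of 9 passed as well, where 0.00517% of 19333 genes were called for miR-92a-1-5p and 0% for each of the other 2 oligoribonucleotides. With the batch covariate, 0 of 9 members were called again, whereas the shares of all genes called were 0.208% (miR-92a-1-5p), 0% (miR-124-5p), and 0.0213% (Mut.oligo) at 6 h. They were 0.352%, 0.0259%, and 0.0466% at 5 d, respectively. An unadjusted p under 0.05 was found for 0, 0, and 1 members at 6 h and for 0, 1, and 3 at 5 d, in this order of oligoribonucleotides. Over all genes tested, it was found for 891, 852, and 1780 genes at 6 h and for 702, 503, and 539 at 5 d. DESeq2 with and without the batch covariate called 0 members, too.

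The log2 fold changes against untreated lay between -0.18 and 0.27 for miR-92a-1-5p and between -0.20 and 0.09 for miR-124-5p at 6 h. At 5 d they lay between -0.10 and 0.45 and between -0.35 and 0.53. For the C1q chains, the 95% intervals without a covariate reached from -0.98 to 0.58 (C1qa after miR-124-5p at 6 h). The data do not exclude a change inside such an interval. With the batch covariate, C1qb after miR-92a-1-5p at 6 h had a log2 fold change of 0.25 (SE 0.13), and it was higher in 4 of 4 batches shared with untreated, by 0.04 to 0.42. In the same batches, C3 was also higher in 4 of 4, by 0.05 to 0.93, and C1ql3 was lower in 4 of 4 (-0.32 to -0.08). The other C1q chains did not go the same way, as C1qa was higher in 2 and lower in 2 batches, and C1qc higher in 1 and lower in 3. C4b, C3ar1, C5ar1, and Serping1 were each higher in 3 and lower in 1.

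C3 had the widest intervals. After Mut.oligo exposure at 6 h its log2 fold change was 1.18 (95% interval -0.32 to 2.68), and with the batch covariate 0.06 (95% interval -0.38 to 0.51). Replicate 4 of Mut.oligo, the library with 5.62 CPM alone in its batch, adds nothing to the latter value. At 5 d, C3 had 0.45 (SE 0.83) after miR-92a-1-5p and 0.53 (SE 0.83) after miR-124-5p without a covariate, and 0.34 (SE 0.15, unadjusted p = 0.0437 from edgeR) and 0.39 (SE 0.15, unadjusted p = 0.0229 from edgeR) with it. Neither passed the adjustment over all genes. In the 2 batches shared with untreated, C3 was higher in both after each of these miRNAs, by 0.33 and 0.35 for miR-92a-1-5p and by 0.07 and 0.46 for miR-124-5p. For C4b, the standard error for miR-92a-1-5p at 5 d was 0.57 without the covariate and 0.12 with it, around log2 fold changes of 0.17 and -0.19.

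Among the 5 d comparisons with untreated, the Mut.oligo libraries had the smallest unadjusted p. C3ar1 had a log2 fold change of -0.49 (SE 0.17, unadjusted p = 0.0103), C5ar1 of -0.55 (SE 0.24, unadjusted p = 0.0333), and Serping1 of -0.87 (SE 0.40, unadjusted p = 0.0415), each with an adjusted p of 0.999 (edgeR, Benjamini-Hochberg). All 3 genes were lower after Mut.oligo exposure in 3 of 3 batches shared with untreated, by 0.05 to 0.67 for C3ar1, 0.14 to 1.09 for C5ar1, and 0.52 to 0.95 for Serping1. The libraries nevertheless overlapped, as the untreated replicate 2 had 2.96 CPM of C3ar1. At 6 h, C1ql3 had a log2 fold change of -0.46 after Mut.oligo exposure (SE 0.19, unadjusted p = 0.0253, adjusted p = 0.468), and of -0.37 with the batch covariate (SE 0.12, adjusted p = 0.382, edgeR).

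**Figure D4:**
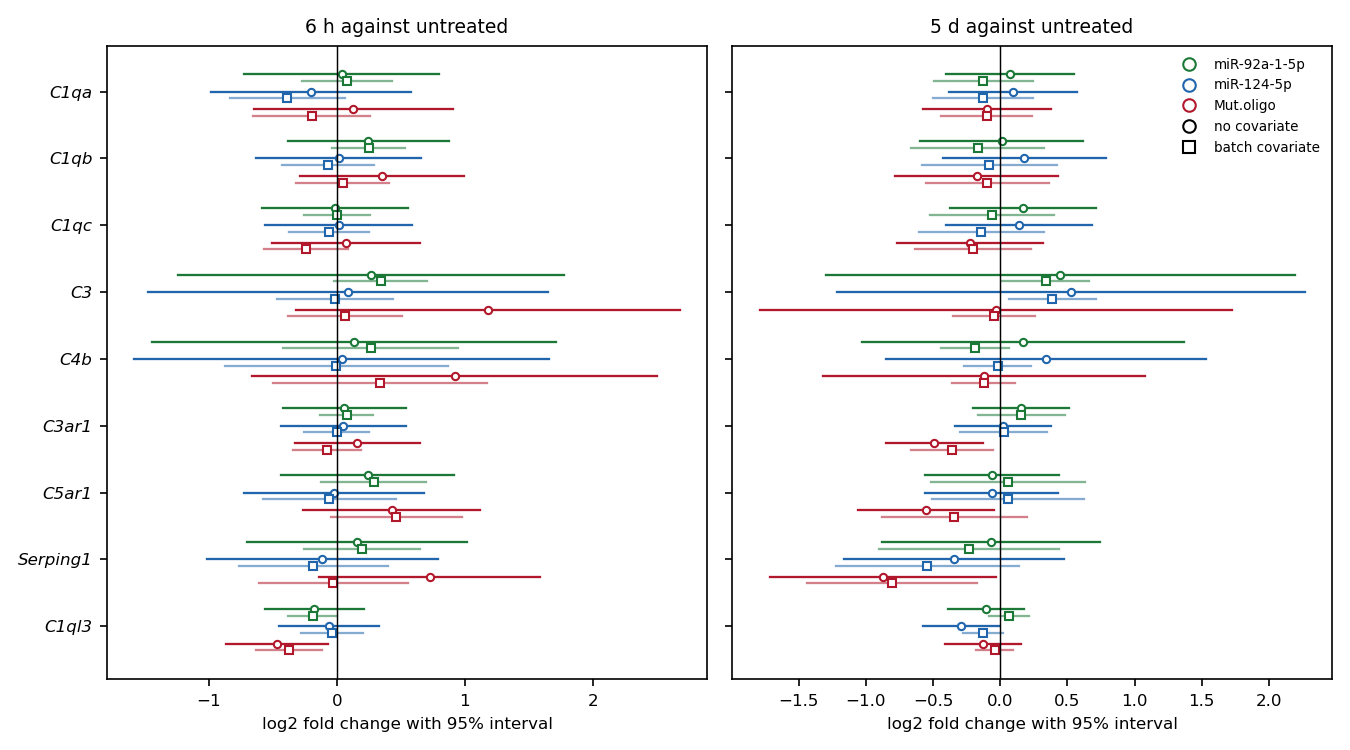
Log2 fold change against untreated (horizontal axis) of the 9 genes for each oligoribonucleotide at 6 h and at 5 d, with and without the batch covariate, with 95% intervals. None of the values passed the threshold, and the intervals of C3 and C4b are several times narrower with the covariate.

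The oligoribonucleotides were compared with each other at the same concentration and time in 6 comparisons. None of the 9 members was called, with 0% of all genes called in each of the 6 comparisons without a covariate. With the batch covariate, 0 members were called as well, and the shares of all genes were 0% in the 3 comparisons at 6 h, 0% for miR-124-5p against Mut.oligo, 0.0103% for miR-92a-1-5p against Mut.oligo, and 0.0103% between the miRNAs at 5 d. C3ar1 at 5 d came nearest. It had 5.72, 4.47, 3.75, and 4.50 CPM after miR-92a-1-5p and 4.31, 4.22, 4.45, and 3.90 CPM after miR-124-5p exposure. All of these values lay above the 4 Mut.oligo values. Its log2 fold change was 0.65 for miR-92a-1-5p against Mut.oligo (SE 0.17, unadjusted p = 0.00147) and 0.51 for miR-124-5p against Mut.oligo (SE 0.17, unadjusted p = 0.00824), with adjusted p of 1.00 each (edgeR, Benjamini-Hochberg). With the batch covariate these were 0.52 (SE 0.14, adjusted p = 0.434) and 0.39 (SE 0.14, adjusted p = 0.998). Between both miRNAs, the log2 fold changes of the members lay between -0.11 and 0.27 at 6 h and between -0.17 and 0.28 at 5 d.

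Since some members changed over time past the threshold in 1 condition and not in another, the difference of these changes was tested. None of the 9 members changed differently over time after an oligoribonucleotide than in untreated neurons, where 0% of all genes were called for each of the 3. With the batch covariate, again 0 members were called, beside 0.137% of all genes for miR-92a-1-5p, 0.00490% for miR-124-5p, and 0.00979% for Mut.oligo. The smallest p-values were those of Mut.oligo, with differences of -1.58 for Serping1 (SE 0.59, unadjusted p = 0.0114), -0.96 for C5ar1 (SE 0.41, unadjusted p = 0.0251), and -0.63 for C3ar1 (SE 0.30, unadjusted p = 0.0404), and an adjusted p of 0.857 for each (edgeR, Benjamini-Hochberg). For C4b, whose rise was not called in the Mut.oligo libraries, the difference to untreated was -0.998 with a 95% interval of -2.99 to 0.997. The C3 difference was -1.17 with an interval of -3.62 to 1.27.

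Across the 16 libraries of a time point, most members varied with the summed level of the microglia markers. Sall1, which other cells express too, made up 54.3% to 73.3% of this sum at 6 h and 50.6% to 64.6% at 5 d. Relations to the marker sums of other cell types were not tested. The family held 18 relations, of 9 members at 2 time points, tested with 100000 permutations. These moved libraries freely across batches, and only the test of values centred on the batch kept them within batches. Deviations of libraries of the same batch were correlated (median r 0.63 at 6 h and 0.50 at 5 d). The p-values without centring therefore treat libraries as independent that were not. For C1qb, Pearson's r was 0.78 (permutation p = 0.00019, adjusted p = 0.00198) and Spearman's rho 0.71 (permutation p = 0.00277) at 6 h, and 0.75 (permutation p = 0.00094, adjusted p = 0.00316) and 0.65 (permutation p = 0.00771) at 5 d. C1qa had an r of 0.77 and 0.74 at 6 h and 5 d, with rho of 0.79 and 0.76, and C1qc an r of 0.73 and 0.74, with rho of 0.68 and 0.73. Permutation p of the r of these chains was at most 0.00123, and of their rho at most 0.00771. Serping1 had an r of 0.79 at 6 h (permutation p = 0.00022) and 0.70 at 5 d (permutation p = 0.00271), with rho of 0.71 and 0.75. The receptor C3ar1 had an r of 0.64 and 0.69 (permutation p = 0.00666 and 0.00299), with rho of 0.66 and 0.59.

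C5ar1 varied with these markers with an r of 0.53 at 6 h (permutation p = 0.0343) and 0.70 at 5 d (permutation p = 0.00251), with rho of 0.59 and 0.65. C4b had an r of 0.72 and 0.70 (permutation p = 0.00151 and 0.00238), with rho of 0.77 and 0.81, and C3 of 0.72 and 0.43 (permutation p = 0.00166 and 0.0934), with rho of 0.61 and 0.37. C1ql3 ran the other way at 6 h, with r = -0.63 and rho = -0.66 (permutation p = 0.00901 and 0.00684), and had r = 0.33 and rho = 0.35 at 5 d (permutation p = 0.217 and 0.187). Of the 18 values of r, 16 had an adjusted p under 0.05, all but those of C3 and C1ql3 at 5 d. After leaving out the 2 libraries farthest from the median marker sum, 17 did, with C3 at 5 d among them, and r was 0.54 to 0.85 in size for these 17. Centred on the experiment batch, however, 0 of the 18 relations passed, with r of 0.88 and 0.44 for C1qb (adjusted p = 0.110 and 0.149, permutation), 0.59 and 0.65 for C1qa, and 0.10 and -0.14 for C3. For Serping1 the centred r was 0.17 and 0.0773, for C5ar1 0.18 and 0.16, for C3ar1 0.82 and -0.0867, for C4b 0.64 and 0.70, for C1qc 0.55 and 0.42, and for C1ql3 -0.31 and 0.27. Without Sall1 in the marker sum, the centred r of C1qa, C1qb, and C1qc was 0.46, 0.67, and 0.38 at 6 h. At 5 d it was 0.89, 0.87, and 0.77, and none of these centred values without Sall1 was tested.

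The pattern of each gene over the 32 libraries, after the mean of each group was subtracted, was compared with that of 13654 genes of at least 1 CPM. C1qb and C1qc were closest to each other, with r = 0.96, and r = 0.78 when the means of the batches were subtracted. C1qa followed C1qb with 0.90 and C1qc with 0.87, and then Fzd9, a receptor of Wnt proteins, with 0.87. Next to C1qb and C1qc stood Laptm5, a lysosomal protein of blood-derived and microglial cells, with 0.91 and 0.89, and next to C1qc also Aif1, the microglial protein Iba1, with 0.88. With batch means subtracted, Laptm5 had 0.65 and 0.49 and Aif1 0.52.

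C4b was most like Gfap (r = 0.96), Tgm2, which encodes a transglutaminase (0.94), and Serpina3n, a protease inhibitor of reactive astrocytes (0.93). With batch means subtracted, these were 0.67, 0.57, and 0.20. C3 was most like Lcn2, the acute-phase protein lipocalin-2 (0.91), Ednra, an endothelin receptor (0.89), and Nfkbia, the inhibitor of NF-κB (0.87), and with batch means subtracted these fell to 0.30, -0.12, and 0.14. C3ar1 was most like Ly9 (0.90), Laptm5 (0.86), and Nckap1l (0.86), all expressed in immune cells, with 0.22, 0.33, and 0.41 by batch. C1ql3 was most like Tgfbr1 (0.87), Maf (0.85), and Cntn3 (0.81), with 0.07, 0.16, and 0.39 by batch. C5ar1 and Serping1, with means under 1 CPM, were not compared. These values of r are descriptions over libraries that share batches, with no test.

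Of 60 other genes of the complement system and its relatives, 45 were tested. Between 6 h and 5 d, 14 rose and 4 fell in untreated neurons, 12 rose and 4 fell with miR-124-5p, 12 rose and 7 fell with miR-92a-1-5p, and 11 rose and 5 fell with Mut.oligo, with median log2 fold changes of 0.25, 0.12, 0.07, and 0.04. These shares of the 45 genes are to be read against the shares of all genes given above. In all 4 conditions, 8 genes rose and 4 fell. Within a time point, 0 of the 45 genes were called in any of the 12 comparisons without a covariate. Between the time points, 33 of the 60 were called in no condition, and these include every gene that was not tested.

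Of the 17 regulators tested, 7 rose in untreated neurons, 5 with miR-92a-1-5p, 6 with miR-124-5p, and 6 with Mut.oligo, and 1 fell in each condition. The shares of all genes were 18.3% to 19.5% for rises and 14.3% to 15.7% for falls. Cd55, the decay-accelerating factor that dissolves convertases, rose from 3.499 to 5.47 CPM at 6 h to 8.33 to 10.03 CPM at 5 d, with log2 fold changes of 1.01 to 1.12. Clu, clusterin, an inhibitor of the terminal complex that astrocytes secrete, rose from 41.7 to 93.6 CPM to 69.9 to 263 CPM, with log2 fold changes of 0.75 to 1.35. Cd46, a cofactor for the cleavage of C3b, had 1.40 to 3.00 CPM at 6 h and 2.56 to 5.27 CPM at 5 d. Susd4, a regulator with complement control repeats, had 37.3 to 49.8 CPM at 6 h and 57.2 to 76.2 CPM at 5 d. Sez6l, of a neuronal family with such repeats, went from 166 to 229 CPM to 257 to 456 CPM. These 5 genes rose in all 4 conditions. Per kilobase of exon, Sez6l2 (50.1 CPM per kb) and Sez6l (47.6 CPM per kb) were the most abundant regulators, and Sez6l2 passed the fold threshold after Mut.oligo exposure alone (log2 fold change 0.52, against 0.30 to 0.42 in the other conditions, a difference not tested). Cd59a, an inhibitor of the terminal complex, rose in 2 conditions and Csmd1 in 1.

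Vtn, vitronectin, another inhibitor of the terminal complex, was the only regulator called as lower. It was at 3.02 to 21.6 CPM at 6 h and at 0.499 to 1.39 CPM at 5 d, with no overlap, and fell by 2.29 on the log2 scale in untreated neurons (SE 0.37), by 2.71 in the miR-124-5p, 3.09 in the miR-92a-1-5p, and 3.75 in the Mut.oligo libraries (SE 0.39). Vtn is also made by mural cells, and of the 7 fibroblast and mural markers 1 fell and 2 rose in untreated neurons, 2 fell and 1 rose with miR-124-5p, and 3 fell and 1 rose with either of the others. Beside these counts, 14.3% to 15.7% of all genes fell and 18.3% to 19.5% rose. The part of mural cells in the fall of Vtn was not tested.

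Among the enzymes and recognition proteins of the classical and lectin pathways, Masp1, a protease of the lectin pathway, was the most abundant (2.50 CPM per kb), followed by Colec12 (0.396 CPM per kb). Masp1 fell in all 4 conditions, from 29.3 to 37.2 CPM to 14.4 to 19.97 CPM, by 0.88 to 1.03 on the log2 scale with standard errors of 0.08. C1s1, which encodes the C1s protease bound to C1q, rose with both miRNAs (1.72 for miR-124-5p, 2.19 for miR-92a-1-5p), and C2, the partner of C4 in the convertase, fell after miR-92a-1-5p and Mut.oligo (-1.71 and -1.34). In untreated neurons, without a call, mean C1s1 was 0.211 ± 0.156 CPM at 6 h and 0.508 ± 0.233 CPM at 5 d (SD). Mean C2 there was 0.445 ± 0.0465 and 0.312 ± 0.187 CPM. A call in some conditions alone is therefore no difference between conditions. C1s2 and Masp2 rose in untreated neurons (0.71 and 1.39) and Colec11 fell after miR-92a-1-5p (-1.25), all below 1 CPM. C4a, the near-identical copy of C4b, was not called in any condition.

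In the alternative pathway, Cfb, complement factor B, was at 0.0304 to 0.370 CPM at 6 h and at 0 in 15 of 16 libraries at 5 d. Set against a floor of 3 reads over the group at 5 d, it was at least 11.2-fold lower in untreated neurons, at least 17.4-fold lower after miR-92a-1-5p, and at least 15.7-fold lower after miR-124-5p exposure. In the Mut.oligo libraries, 20 reads at 6 h stood against 2 reads at 5 d, a 19.2-fold difference with an exact 95% counting interval of 4.66 to 169. Cfp, properdin, was the most abundant gene of this pathway (3.12 CPM per kb) and was not called. In the terminal pathway, C8g (0.504 CPM per kb) fell in all 4 conditions, by 1.27 to 1.44 on the log2 scale, and was followed in level by C7 (0.131 CPM per kb). C7 rose and C8b fell after miR-92a-1-5p (0.82 and -1.66), and Hc, which encodes C5, the source of the ligand of C5ar1, rose after miR-124-5p (1.03). In untreated neurons, without a call, mean Hc was 0.330 ± 0.183 CPM at 6 h and 0.550 ± 0.253 CPM at 5 d (SD).

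Among the receptors, C1qbp, a mitochondrial protein that binds the globular heads of C1q, had the highest level (23.4 CPM per kb), followed by Itgb2, a chain of the receptors for cleaved C3 (0.504 CPM per kb), and neither was called. Cr2, a receptor for C3 fragments, rose in all 4 conditions, from 0.694 to 1.71 CPM to 2.00 to 3.58 CPM. Itgam, the other chain of complement receptor 3 and a microglial gene, rose after miR-92a-1-5p (0.93), and Cd93 rose in untreated neurons and after Mut.oligo exposure (1.26 and 1.24). Of the synaptic C1q-like genes, Cbln1 (14.2 CPM per kb) and Adgrb3 (7.26 CPM per kb) had the highest levels. Adgrb3, the receptor of C1ql proteins, rose in all 4 conditions with log2 fold changes of 0.76 to 0.88, and C1ql2, a close relative of C1ql3, rose in all 4 with 1.16 to 1.49. Cbln3 rose in 3 conditions and Cbln4 after Mut.oligo exposure. C1ql3 and its receptor gene Adgrb3 were thus each called as higher in all 4 conditions. The synaptic C1q-like genes C1ql1, Cbln1, and Cbln2 were tested and called in none, and C1ql4 was not tested. These rises are to be read against the shares of all genes given above, and a link between C1ql3 and Adgrb3 was not tested.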

How the data were processed

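RNA was measured in 32 libraries of mouse cortical neurons, prepared with a stranded mRNA kit. According to the submitters' processing notes and the methods of the study, the authors mapped the reads to GRCm38 with STAR and counted reads on exons by strand with featureCounts (Subread), and deposited counts per gene without normalization. A symbol was found for 49326 of 49671 identifiers, with 0 columns unmapped. The members and gene lists were chosen with earlier results of these data known.

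The fits, 1 per time point and 1 over all 32 libraries, used edgeR 4.0.16 (R 4.3.3; TMM, quasi-likelihood test, all groups, no covariate) on genes that reached 5 counts in 3 or more libraries. Simulated data with 200 changed genes were used to test the fits. CPM are scaled to the library total. Relations used Pearson's r and Spearman's rho with 100000 two-sided permutations (SciPy 1.17.1). Genes named are all members, the pathway genes called in any comparison, the 2 with the highest level per kb in each role, and the 3 most like each member. P-values measure the spread between these libraries, and intervals of counts cover counting error only. Alternatives were the batch covariate, a replicate block, DESeq2 1.42.0 with and without batch, RLE size factors, no filter, a filter of 10 counts in every library, calls without the fold threshold, only the 2 groups compared, leaving out each replicate, and, chosen after seeing the data, the microglia sum without Sall1, its most abundant marker. Of the planned microglia list, 1 marker is not reported here and was left out of every count and sum.

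Replicate numbers were checked for pairing. Libraries of the same number had correlated deviations from the group means (over 0.1) in 7 of 24 pairs at 6 h and 15 of 24 at 5 d. Of these 24 pairs, 2 share a batch at 6 h and 13 at 5 d. The numbers thus do not pair the samples at 6 h, and at 5 d they follow the batches only in part.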

Additional observations from a re-analysis of the deposited data

Results flagged for a closer look

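Among the 72 groups of 4 libraries tested (9 genes in 8 groups), 7 held 1 library far from the other 3, by the gap to the nearest library relative to the range of the group. Chance flags about 1 in 20 groups. For C1qb, this was replicate 1 of miR-124-5p at both time points, with 7.05 CPM against 3.00 to 3.20 CPM at 6 h and 10.3 CPM against 3.54 to 4.64 CPM at 5 d. For C1qc, it was the same library at 6 h, with 5.44 CPM against 2.92 to 3.15 CPM. C3 stood out in untreated replicate 4 at 6 h with 2.57 CPM against 0.332 to 0.630 CPM, and in miR-92a-1-5p replicate 3 at 6 h with 2.91 CPM against 0.632 to 1.00 CPM. These 6 h libraries belong to 1 experiment batch, whose 4 libraries had 2.37 to 2.91 CPM of C3. At 5 d, the Mut.oligo libraries had 1 low value of C3ar1, with 2.33 CPM in replicate 2 against 3.09 to 3.15 CPM, and 1 high value of Serping1, with 0.772 CPM in replicate 1 against 0.216 to 0.286 CPM.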

How the results depend on the processing

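Within the time points and for the differences of the change over time, 0 of 135 values of the members were called under any alternative, with a smallest adjusted p of 0.170, and 81 changed sign in at least 1 of them, so that their directions carry no weight. Leaving out each replicate gave 0 to 0 called members in each of these comparisons. Over time, leaving out single replicates gave 2 to 4 called members in untreated neurons, 3 to 4 after miR-92a-1-5p, 3 to 6 after miR-124-5p, and 4 to 5 after Mut.oligo exposure. DESeq2 called 4, 4, 5, and 4 members, against 3, 4, 4, and 4. The fall of C3ar1 in untreated neurons was lost without a filter on low counts and in a fit of only the 2 groups compared. With at least 10 counts in every library, 10 other pathway genes were called over time after miR-92a-1-5p and 10 after Mut.oligo exposure, and fewer genes were tested there.

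The fit with the replicate number as a block changed 1 call of the members, C1qa over time after miR-124-5p, which had a log2 fold change of 0.71 (SE 0.30, adjusted p = 0.0442) under the replicate block. The block gave 3, 4, 5, and 4 called members over time and 0 in every other comparison.

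The number of relations to the microglia markers with an adjusted p under 0.05 went from 16 to 0 when both measures were centred on the experiment batch, and r of C3ar1 at 5 d changed from 0.69 to -0.0867. With the marker sum that leaves out Sall1 and no centring, 16 passed. There the r of C1qb at 6 h was 0.86, C4b at 6 h no longer passed (0.46), and C3 at 5 d passed (0.58). Depth limits C4b, C3, Serping1, and C5ar1 most, with as few as 7, 11, 15, and 16 reads in a library at 6 h.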
